A study of Mus musculus with 16 samples.

Results

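The subject here is where brown and white preadipocytes answered Fgf8b differently. For every gene the Fgf8b response was taken within each depot as the mean log2 level with Fgf8b minus that of the controls, and the white response was subtracted from the brown one. All 16 of the 16 RNA sequencing libraries entered this contrast, and 15222 genes were tested. The cells were primary preadipocytes, which can mature into fat cells, grown from the stromal-vascular fraction of C57BL/6N UCP1 reporter mice (the same strain label in all groups). White cells came from inguinal fat and brown cells from interscapular fat, and each depot had 4 control libraries and 4 libraries of cells given Fgf8b. The labels call the same material adipocytes in one field and preadipocytes in others. The sources used here do not give the dose and duration of Fgf8b, the age of the mice or the number pooled per culture. The design text speaks of 3 cultures, while each group has 4 libraries. The p-values therefore measure the spread between these libraries, part of which may be technical.

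Fgf8b is a secreted splice form of fibroblast growth factor 8, which binds FGF receptors and switches on the Ras-ERK kinase cascade. That cascade induces immediate-early transcription factors of the Egr family and its own brakes, the Dusp phosphatases and the Sprouty proteins. In fat, FGF signals act on preadipocyte growth and on the choice to become a fat cell. Brown and white fat cells arise from different precursors, and brown ones burn fuel through the uncoupling protein Ucp1.

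A level below is a summed RPKM: reads per kilobase of transcript, scaled to the library's total reads and added over all transcripts the deposited table lists for a gene. Overlapping transcripts are counted more than once in such a sum, so levels are compared between groups and not between genes. Responses and differences are on the scale of log2(summed RPKM + 0.5), which understates the change of low genes. A positive difference means that the brown response was the more positive one, whether through a larger rise or a smaller fall. A gene was called where the limma test of the difference gave a Benjamini-Hochberg adjusted p under 0.05, and adjusted p-values below are from that fit. Members of a list counted as having a positive or negative difference, or as having risen or fallen, are those called.

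The libraries held 13.7 M to 20.1 M reads, as estimated from the steps between low RPKM values. Library 15, a brown control, stood apart, with a limma array weight of 0.195 against 0.832 to 1.51 for the others. The listed genes of mature fat cells, apart from Fabp4, were at or near 0 in all groups: the highest single value of Adipoq was 0.633. Fabp4 had means of 20.6 in white controls and 11.7 in white with Fgf8b. In brown its means were 36.3 and 24.3. The preadipocyte receptor Pdgfra stood between 473 and 715. Zic1, a brown lineage transcription factor, matched the depot labels, with a mean of 1.23 in white and 88.6 in brown controls. The brown lineage genes Lhx8 (17.8 and 36.9) and Ebf2 (35.1 and 51.8) differed less. Prdm16, on the same list, did not follow the labels (23.5 and 21.1). Hoxc10, a posterior homeobox gene, had means of 139.6 and 8.14. Its relatives Hoxc9 (79.4 and 26.3) and Hoxc8 (142 and 109) differed less. All white libraries carry the numbers 1 to 8 and all brown ones 9 to 16, so the depot cannot be told apart from how and when each depot's libraries were handled. Each response was formed within a depot.

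The Fgf8b response was called in 10007 genes in white cells (65.7% of those tested) and in 10864 in brown cells (71.4%). Across genes the responses had a Pearson r of 0.855 and a Spearman rho of 0.799. These are descriptions over genes, which are not independent replicates, and the responses share no library. The difference between the responses was called in 5313 genes (34.9%), 2604 with a more positive response in brown (17.1%) and 2709 with a more negative one (17.8%). At an unadjusted p under 0.05 there were 6652. The difference was at least 2-fold in 604 genes, 222 positive and 382 negative. Without library 15, 5875 genes were called. The median difference over all genes was -0.01.

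Most depot-dependent genes moved the same way in both depots by unequal amounts. Of the 5313, 1990 responded more strongly in brown (1083 rose and 907 fell) and 891 more strongly in white (388 rose and 503 fell). A response was called in brown alone for 1224 genes, of which 540 rose and 684 fell. It was called in white alone for 757 genes, of which 435 rose and 322 fell. Opposite responses, called in both depots with opposite signs, were found for 409 genes, which is 2.69% of the genes tested. In 144 of these the gene rose in brown and fell in white, and in 265 it fell in brown and rose in white. Only 109 of the 409 had responses of at least 0.32 (log2) in size in both depots. Without library 15 the opposite class held 485 genes. The remaining 42 genes were called in neither depot. A difference on the log scale can turn sign on the linear scale when starting levels differ, and 5211 of the 5313 genes (98.1%) kept their sign on the RPKM scale, among them all 409 opposite ones.

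**Figure D1:**
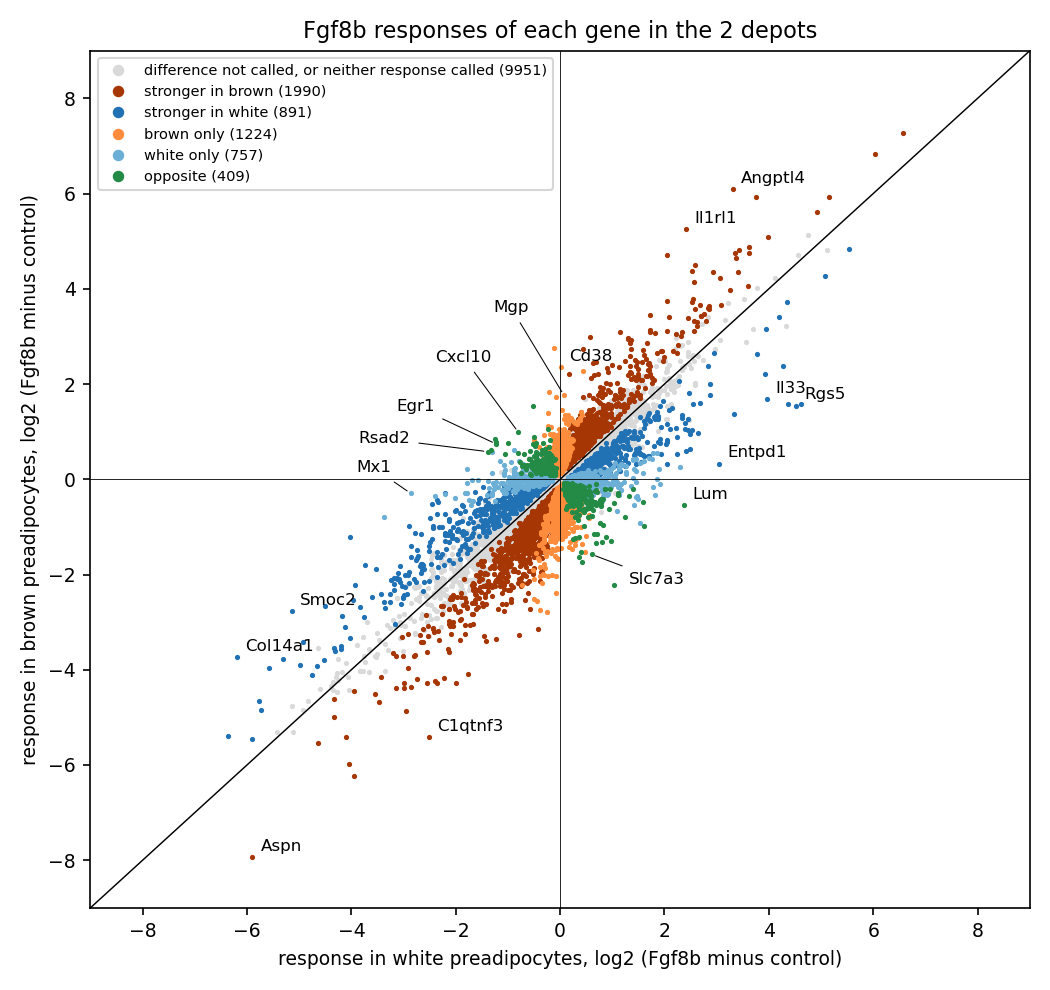
Each point is a gene, with its log2 response to Fgf8b in white cells on the horizontal axis and in brown cells on the vertical axis, coloured by class; the diagonal marks equal responses. Lum and Slc7a3 lie among the genes that rose in white and fell in brown, and Egr1, Rsad2 and Cxcl10 among those that fell in white and rose in brown.

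Fgf8b changed the gap between the depots in both directions. Among the 5313 called genes, the distance between the brown and white group means on the log2 scale was larger with Fgf8b than in controls for 3655 and smaller for 1658. The order of the depots was swapped in 3016, mostly across small gaps. For 4663 of the 5313 the gap was under 2-fold both in controls and with Fgf8b. Only 6 genes had a gap of at least 2-fold in both conditions with opposite sign. Of the 604 genes with a difference of at least 2-fold, 239 differed at least 2-fold between depots only with Fgf8b. For 130 that was so only in controls.

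The interferon-stimulated genes differed in 1 direction. Most encode antiviral proteins, and they are switched on when interferon receptors activate transcription factors. Of 40 members tested, 38 had a positive difference and none a negative one, against 17.1% and 17.8% of all genes. The median difference was 0.87. In white cells 37 of the 40 fell and 2 rose, against 29.5% and 36.3% of all genes. In brown cells 9 fell and 8 rose, against 34.7% and 36.7%. This split moved with scaling, to 12 fallen and 7 risen under median-of-ratios and 14 fallen and 7 risen under upper-quartile scaling. Thus 22 members responded in white alone, 9 fell more in white, and 5 responded in opposite directions. In bulk RNA, fewer cells making a transcript and less transcript per cell cannot be told apart. Several of these families (Ifit, Oas, Mx, Gbp) hold near-identical copies, so the values of single members are uncertain where reads could be assigned to more than one.

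The promoters of the genes that carried this pattern are shown in part because interferon-activated transcription factors bind a short element, the interferon-stimulated response element. The letters GAAANNGAA were searched on both strands from 250 bases before to 50 bases after each start, in RefSeq promoters of build GRCm38.p6. They were found in 20 of the 29 members with a promoter in that table (69.0%), against 8.6% of the 10590 tested genes with a promoter and 8.6% of all 32851 promoters. The members were listed as known interferon-stimulated genes, so a high share follows from the list and does not bear on the difference between the depots. Capitals mark the matches, on either strand, in stretches of Rsad2 (chr12:26456533-26456601, minus strand), Cxcl10 (chr5:92349064-92349132, minus strand), Ifit3 (chr19:34583344-34583465, plus strand) and Ifit1 (chr19:34640750-34640843, plus strand). A match describes the letters and not a bound site. These 4 were chosen for display after their values and matches were seen.
Rsad2: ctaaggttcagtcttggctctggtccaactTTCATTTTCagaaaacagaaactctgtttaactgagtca
Cxcl10: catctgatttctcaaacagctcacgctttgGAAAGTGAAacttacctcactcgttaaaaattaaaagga
Ifit3: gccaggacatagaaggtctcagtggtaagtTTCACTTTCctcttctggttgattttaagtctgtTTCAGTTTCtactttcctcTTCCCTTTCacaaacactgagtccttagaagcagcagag
Ifit1: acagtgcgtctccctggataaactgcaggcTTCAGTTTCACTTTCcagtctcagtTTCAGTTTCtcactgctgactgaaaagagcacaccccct
Ifit3 and Ifit1 each held 3 matches, of which the first in Ifit1 overlap, and Rsad2 and Cxcl10 held 1 each.

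Rsad2 encodes viperin, an antiviral enzyme of the endoplasmic reticulum. In white cells it stood at 242, 235, 181 and 184 in the controls and at 76.2, 79.5, 101 and 66.4 with Fgf8b. In brown cells it stood at 89.7, 95, 83.1 and 83.6 in the controls and at 181, 113, 134 and 109.6 with Fgf8b. The groups did not overlap within either depot, and the direction was opposite: Rsad2 fell 2.61-fold in white and rose 1.49-fold in brown. The difference was 1.96 ± 0.200 (SE, n = 4 per group) with a limma adjusted p of 5.72e-07.

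Cxcl10, a chemokine that draws T cells, followed the same course. Its white controls stood at 190.5, 167, 127 and 159.7 and the white Fgf8b libraries at 89.0, 88.9, 109.9 and 80.8. Its brown controls stood at 61.3, 70.8, 59.8 and 70.1 and the brown Fgf8b libraries at 183, 103, 133 and 113. The groups did not overlap within a depot, and the order of the depots' means was swapped by Fgf8b. The difference was 1.78 ± 0.206 (SE) with a limma adjusted p of 2.38e-06. Cmpk2, a mitochondrial nucleotide kinase, fell 2.0-fold in white and rose 1.69-fold in brown, a difference of 1.75 ± 0.175 (adjusted p = 4.58e-07). Usp18, which removes Isg15 from proteins and damps interferon receptor signalling, fell 1.23-fold in white and rose 1.55-fold in brown.

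Mx1 had the largest difference of the list. In white, controls stood at 48.9, 47.2, 32.8 and 33.5, and white Fgf8b libraries at 6.22, 5.70, 5.80 and 3.12. In brown, controls stood at 9.68, 7.32, 9.33 and 7.07, and brown Fgf8b libraries at 8.60, 5.05, 8.35 and 5.36. The brown groups overlapped, and the brown response of -0.29 was not called (adjusted p = 0.207), while Mx1 fell 7.28-fold in white. The difference was 2.57 ± 0.289 (SE) with a limma adjusted p of 1.84e-06.

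Ifit3, an RNA-binding antiviral protein, fell 3.55-fold in white, from 564 to 737 in the controls to 138 to 222 with Fgf8b. Its brown libraries stood at 294 to 349 and at 211 to 381, overlapping, with a response of -0.29 (adjusted p = 0.0955). Ifi44 and Oas1a were likewise called in white alone, with differences of 1.71 ± 0.226 and 1.21 ± 0.279 (SE). Ifit1 fell in both depots, 2.92-fold in white and 1.33-fold in brown. Oasl1 rose in both, 1.47-fold in white and 3.39-fold in brown. Oasl1 was the 1 member that moved the same way in both depots and more in brown.

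The interferon-stimulated genes also moved together between libraries of 1 group. Brown Fgf8b library 10 was the highest of its group for 38 of the 40 members, and white Fgf8b library 8 the lowest of its group for 37. Likewise white control 3 was the highest of its group for 29 and white Fgf8b library 6 for 32. White control 7 was the lowest for 32, brown control 15 for 25 and brown Fgf8b library 16 for 30. Without library 10, 37 members had a positive difference and the median was 0.79. Without library 8 the count was 36 and the median 0.70. Without brown control 15, 36 were positive, 1 was negative and the median was 0.80. Under the 2 other scalings of the libraries, Oas2 and Ifit3 showed a called fall in brown too, Ifit3 under upper-quartile scaling alone.

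Class I antigen presentation and immunoproteasome genes, many of which interferon also induces, differed in the same direction by less. Of 16 tested, 9 had a positive difference and none a negative one, against 17.1% and 17.8% of all genes, with a median of 0.27. In white 15 fell and in brown 12, against 29.5% and 34.7% of all genes. Psmb10, an immunoproteasome subunit, fell 1.69-fold in white (77.9 to 90.2 in the controls and 42.0 to 56.6 with Fgf8b). In brown it stood at 50.4 to 64.7 and 49.6 to 66.7, and the difference was 0.68 ± 0.139 (SE, adjusted p = 0.000881). Nlrc5, the transactivator of class I genes, fell 1.84-fold in white and had a brown response of -0.24 that was not called (adjusted p = 0.117) but was called under upper-quartile scaling. The count of positive members was 6 without library 15, without library 10 and without library 8 alike.

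The amino acid and integrated stress response genes differed the opposite way. When amino acids run short or unfolded proteins build up, the transcription factor Atf4 induces this program of amino acid transporters, synthesis enzymes and tRNA synthetases. Of 33 members tested, 28 had a negative difference and 1, the tryptophan tRNA synthetase Wars, a positive one, with a median of -0.54. Over all genes 17.8% had a negative and 17.1% a positive difference. In brown cells 25 fell and 4 rose, against 34.7% and 36.7% of all genes. In white cells 13 fell and 15 rose, against 29.5% and 36.3%. Opposite responses were called for 8 members, against 2.69% of all genes. Wars fell 1.63-fold in white and 1.26-fold in brown.

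Atf4 with C/EBP proteins binds a composite element, and the letters TGATGNAA were searched in the same way. They were found in 11 of the 26 members with a promoter (42.3%), against 2.8% of the tested genes with a promoter and 4.0% of all promoters. Here too the members were listed as known genes of the program, so the share does not bear on the difference between the depots. Capitals mark the matches in stretches of Chac1 (chr2:119351019-119351086, plus strand), Pck2 (chr14:55540133-55540200, plus strand) and Slc7a11 (chr3:50443623-50443709, minus strand), chosen in the same way as those above.
Chac1: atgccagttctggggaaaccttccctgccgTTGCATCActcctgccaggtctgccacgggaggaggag
Pck2: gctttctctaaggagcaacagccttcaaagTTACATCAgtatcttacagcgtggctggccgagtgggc
Slc7a11: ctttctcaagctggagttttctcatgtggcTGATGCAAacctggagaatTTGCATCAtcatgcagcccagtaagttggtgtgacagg
Slc7a11 held 2 matches on opposite strands.

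Chac1 encodes an enzyme that breaks down glutathione and is an early Atf4 target. White controls stood at 37.8, 42.4, 44.6 and 42.5, and white Fgf8b libraries at 61.1, 53.1, 51.7 and 55.7. Brown controls stood at 48.5, 55.4, 54.7 and 40.7, and brown Fgf8b libraries at 18.2, 14.6, 16 and 18.3. The groups did not overlap in either depot. Chac1 rose 1.32-fold in white and fell 2.90-fold in brown, a difference of -1.94 ± 0.131 (SE, limma adjusted p = 3.41e-09).

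Slc7a3, a transporter of arginine and lysine, rose in white from 19.3, 18.6, 21.1 and 21.6 in the controls to 34.5, 32.7, 26.7 and 29.9. In brown it fell from 8.87, 9.70, 12.8 and 11.2 to 3.70, 2.55, 3.25 and 3.40. Its difference of -2.18 ± 0.165 (SE, adjusted p = 1.57e-08) was the largest in size of the list. Slc7a11, the cystine importer that feeds glutathione synthesis, rose 1.19-fold in white and fell 2.38-fold in brown. Its small white rise was not called under upper-quartile scaling. Slc7a11 and Ifit1 (added for their promoters), Usp18, Oasl1 and Wars lie outside the rule by which genes are named and were chosen after their values were seen.

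Pck2, the mitochondrial enzyme that makes phosphoenolpyruvate, had a response in brown alone. Its white controls were at 678, 679.7, 688 and 672, and white Fgf8b libraries at 778, 662, 654 and 654. Its brown controls were at 611, 627, 608 and 549, and brown Fgf8b libraries at 219.9, 217, 227 and 213. The white groups overlapped, with library 2 above the rest, while in brown Pck2 fell 2.72-fold. The difference was -1.46 ± 0.0708 (SE, adjusted p = 6.41e-11).

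Trib3, a pseudokinase induced by Atf4 that feeds back on it, fell 2.10-fold in white and 6.83-fold in brown, a difference of -1.70 ± 0.0871 (SE, adjusted p = 1.21e-10). Vldlr, a lipoprotein receptor, fell 1.27-fold in white and 3.82-fold in brown. Cth, which makes cysteine from cystathionine, rose in white from between 19.9 and 24.2 to between 44.7 and 58.2. In brown its libraries overlapped, at 14.6 to 17.9 and 13 to 17.8, and the difference was -1.28 ± 0.139 (SE). Slc7a7, an exporter of basic amino acids, fell 2.77-fold in brown, with a white response of 0.23 that was not called. Leaving out library 15, 10 or 8 left 27 to 29 members of the list negative and the 1 positive.

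Cholesterol synthesis and sterol control genes also had more negative responses in brown. Of 25 tested, 20 had a negative difference and none a positive one, against 17.8% and 17.1% of all genes, with a median of -0.47. In brown 19 fell and 1 rose, against 34.7% and 36.7% of all genes. In white 9 fell and 10 rose, against 29.5% and 36.3%. The white split moves with scaling, to 7 risen and 9 fallen under median-of-ratios and 6 risen and 10 fallen under upper-quartile scaling. The element of the sterol regulator Srebp was searched as TCACNCCAC and found in 1 of 16 members with a promoter (6.2%), Hmgcs1, against 1.5% of the tested genes and 1.2% of all promoters. It is shown in capitals at chr13:119690184-119690252, plus strand, as the only match in the list.
Hmgcs1: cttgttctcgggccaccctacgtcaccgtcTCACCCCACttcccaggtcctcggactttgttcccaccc
Hmgcs1, which makes the substrate of the rate-limiting enzyme of sterol synthesis, stood in white at 799.6 to 835 in the controls and 713 to 731 with Fgf8b. The brown values were 813 to 1006 and 441 to 472, with library 15 the highest control. It fell 1.12-fold in white and 1.91-fold in brown, a difference of -0.76 ± 0.0690 (SE, adjusted p = 1.43e-07).

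Acat2, which condenses acetyl-CoA, was opposite: white controls stood at 155 to 163 and rose to 196 to 203, and brown controls at 161 to 171 fell to 126 to 131. Its difference was -0.70 ± 0.0458 (SE, adjusted p = 2.23e-09). Nsdhl, a late sterol enzyme, rose 1.09-fold in white and fell 1.47-fold in brown, and its white rise was not called under either other scaling.

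**Figure D2:**
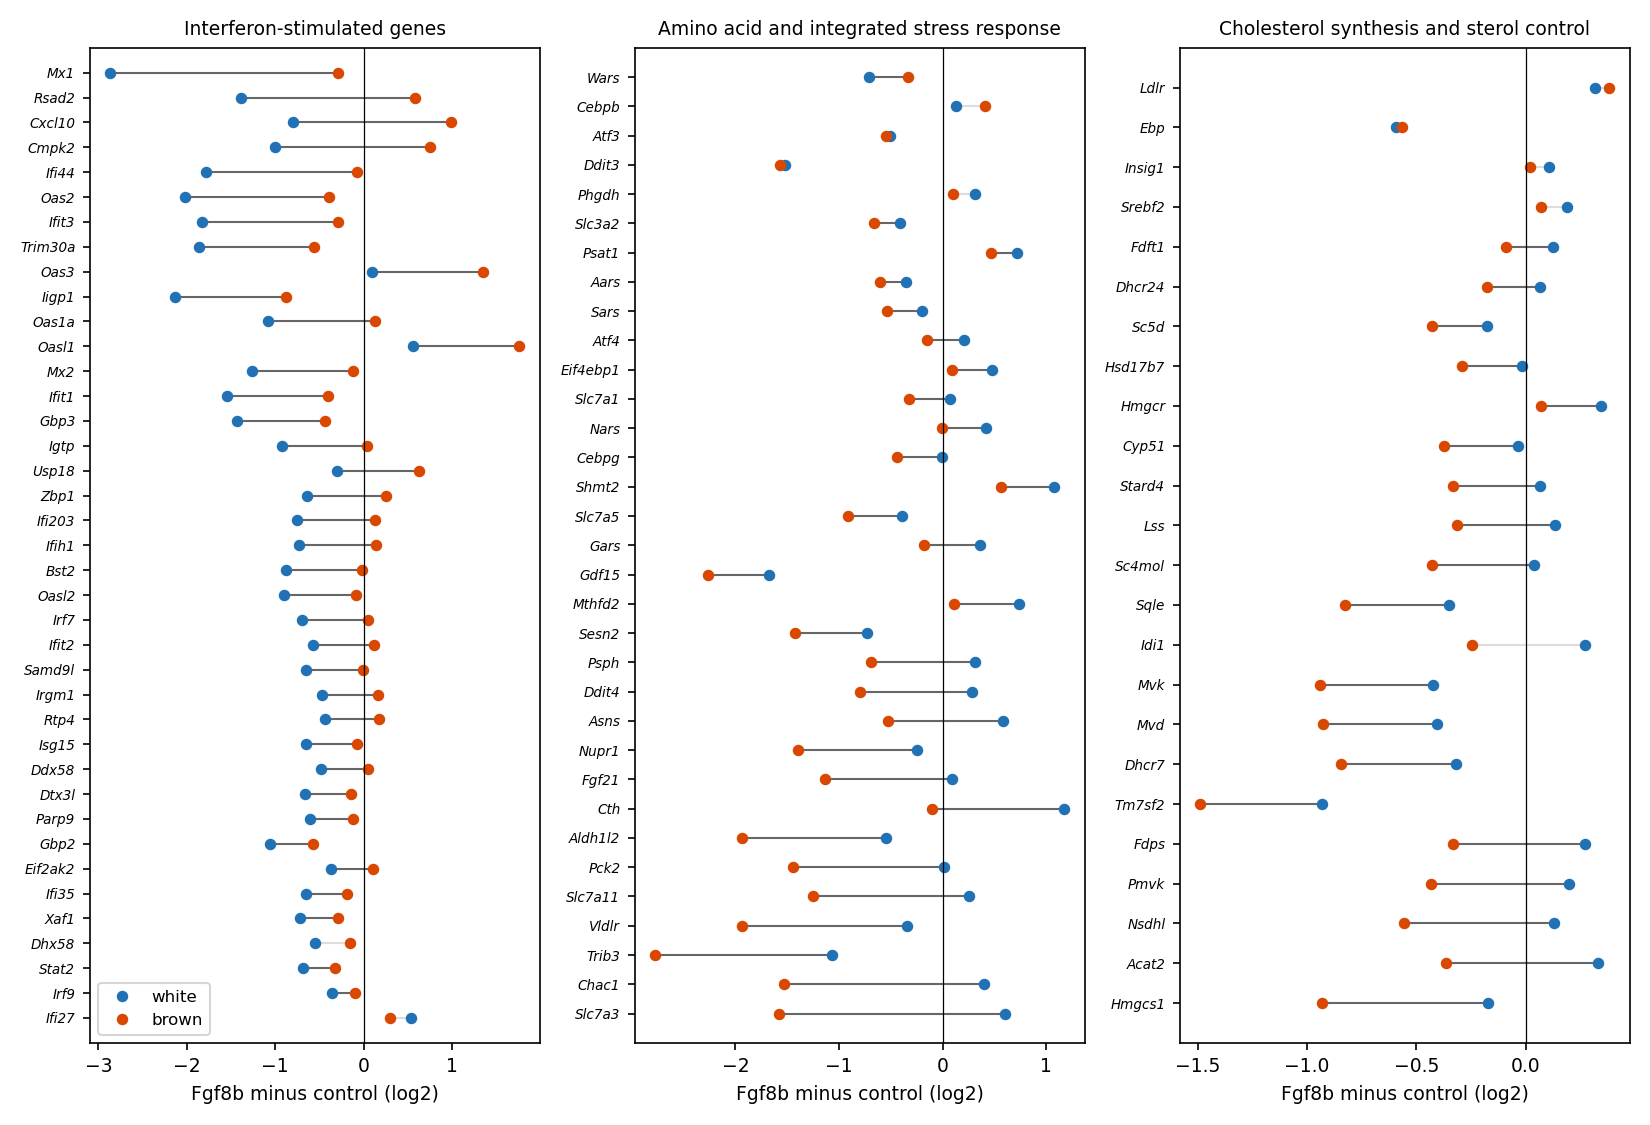
Each row is a gene of the interferon, amino acid stress or sterol lists (not every member is drawn), with points for its log2 response to Fgf8b in white and in brown cells joined by a line, pale where the difference was not called. The brown point lies to the right of the white one in the called interferon rows, and to the left in the called sterol rows and, apart from Wars, the called amino acid stress rows.

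Among feedback regulators and targets of FGF and ERK, most members rose in both depots. Of 32 tested, 26 had a positive difference and none a negative one, against 17.1% and 17.8% of all genes, with a median of 0.59. In white 26 rose and 4 fell, against 36.3% and 29.5% of all genes. In brown 29 rose and 2 fell, against 36.7% and 34.7%. The members that fell in white were Egr1, Fos, Spry1 and Il17rd, and Spry1 and Il17rd fell in brown as well. Fos, Spry1 and Il17rd were named after their values were seen. For 21 members the responses had the same direction and the brown one was the stronger. Without library 15, 27 were positive and 1 negative.

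Egr1, an immediate-early transcription factor induced by ERK, was the opposite member. White controls stood at 163, 157, 164 and 161, and white Fgf8b libraries at 61.2, 67.9, 73.1 and 73.6. Brown controls stood at 116, 105, 114 and 108, and brown Fgf8b libraries at 188, 192, 184 and 178. No group overlapped another, and the depots changed places: white was above brown in controls and below it with Fgf8b. Egr1 fell 2.33-fold in white and rose 1.67-fold in brown, a difference of 1.96 ± 0.0735 (SE, adjusted p = 2.49e-12). Egr2, a related factor, stood at 41.4 to 46.4 in white controls and 39.1 to 42.7 with Fgf8b. The brown rise was 3.34-fold, from 21.0 to 23.3 to 71.9 to 80.9. Under both other scalings the small white fall of Egr2 was called as well.

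Dusp4, a nuclear phosphatase that switches off ERK, rose in white from 44.6, 45.4, 44.7 and 42.7 to 132, 151, 154 and 152. In brown it rose from 33.6, 31.7, 30.3 and 30.4 to 335, 359.7, 348 and 354. Brown was the lower depot in controls and the higher with Fgf8b, and the rises were 3.29-fold and 10.9-fold (difference 1.73 ± 0.0709, SE, adjusted p = 7.98e-12). Dusp5, another nuclear ERK phosphatase, rose 2.21-fold in white and 8.48-fold in brown. Dusp6, its cytoplasmic relative, rose 6.48-fold and 10.8-fold, a smaller difference of 0.74 ± 0.114 (SE).

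Among receptors and ligands of the FGF family, 14 were tested, with a median of 0.09. Of these 6 had a positive and 5 a negative difference, against 17.1% and 17.8% of all genes. Fgfr1, the main receptor of mesenchymal cells, had overlapping white groups (1236 to 1283 and 1246 to 1315) and rose 1.31-fold in brown (947 to 1029.7 and 1270.0 to 1347). Its difference was 0.37 ± 0.0429 (SE, adjusted p = 2.79e-06). Fgfr2 fell in both, 4.53-fold in white and 2.21-fold in brown. Fgf10, a growth factor of the fat stroma, was opposite: it fell 1.17-fold in white, from 59.6 to 70.5 to 53.1 to 57.8. The brown rise was 2.09-fold, from 27.1 to 38.8 to 64.8 to 70.4. Flrt2, a membrane partner of FGF receptors, rose 2.18-fold in white and 1.14-fold in brown.

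Outside these lists, Rgs2, which damps G protein signalling, had the largest positive difference among the opposite genes named here. Without Fgf8b, white libraries stood at 109, 99.9, 99.2 and 97.0, and white Fgf8b libraries at 60.4, 74.2, 73.8 and 72.7. Without Fgf8b, brown libraries stood at 32.7, 36.6, 36.1 and 39.1, and brown Fgf8b libraries at 104, 104, 99.7 and 117. The groups did not overlap within a depot, and the difference was 2.07 ± 0.0988 (SE, adjusted p = 5.10e-11). Hap1, a trafficking partner of huntingtin, fell 1.62-fold in white and rose 1.45-fold in brown. Axin2, a target and brake of WNT signalling, fell 2.09-fold in white and rose 1.44-fold in brown at levels of 0.814 to 4.95.

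Lum had the most negative difference of the opposite genes named. It encodes lumican, a small leucine-rich proteoglycan that spaces collagen fibrils. White controls stood at 55.3, 45.1, 50.8 and 43.8, and white Fgf8b libraries at 236, 266, 253 and 262. Brown controls stood at 20.2, 26.9, 18.5 and 29.4, and brown Fgf8b libraries at 15.4, 14.6, 19.7 and 14. All white Fgf8b libraries were above all white controls, while in brown 1 Fgf8b library, 14, lay within the range of the controls. Lum rose 5.18-fold in white and fell 1.46-fold in brown, a difference of -2.92 ± 0.178 (SE, adjusted p = 9.87e-10).

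Rarres2, the adipokine chemerin, rose in white from 7.04, 7.0, 6.40 and 7.01 to 28.2, 23.4, 19.2 and 18.2. In brown it fell from 4.11, 3.58, 4.08 and 3.69 to 1.94, 2.06, 1.16 and 1.73. The groups did not overlap within either depot, and the difference was -2.60 ± 0.198 (SE, adjusted p = 1.67e-08). Ucp2, a mitochondrial carrier related to Ucp1, rose 1.77-fold in white (33.9 to 40.3 and 56.5 to 69.4). It fell 1.95-fold in brown (51.1 to 58.9 and 26.6 to 28.4), a difference of -1.79 ± 0.0959 (SE). Crispld2, a secreted cysteine-rich protein, rose 1.61-fold in white and fell 2.54-fold in brown. A4galt, which makes globo-series glycolipids, rose 1.33-fold and fell 3.32-fold. Selenbp1, a selenium-binding oxidase, rose 1.28-fold and fell 3.08-fold, and its white rise was not called under either other scaling. The classes of the other opposite genes named here, apart from Selenbp1, Nsdhl and Slc7a11, were the same under both scalings.

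**Figure D3:**
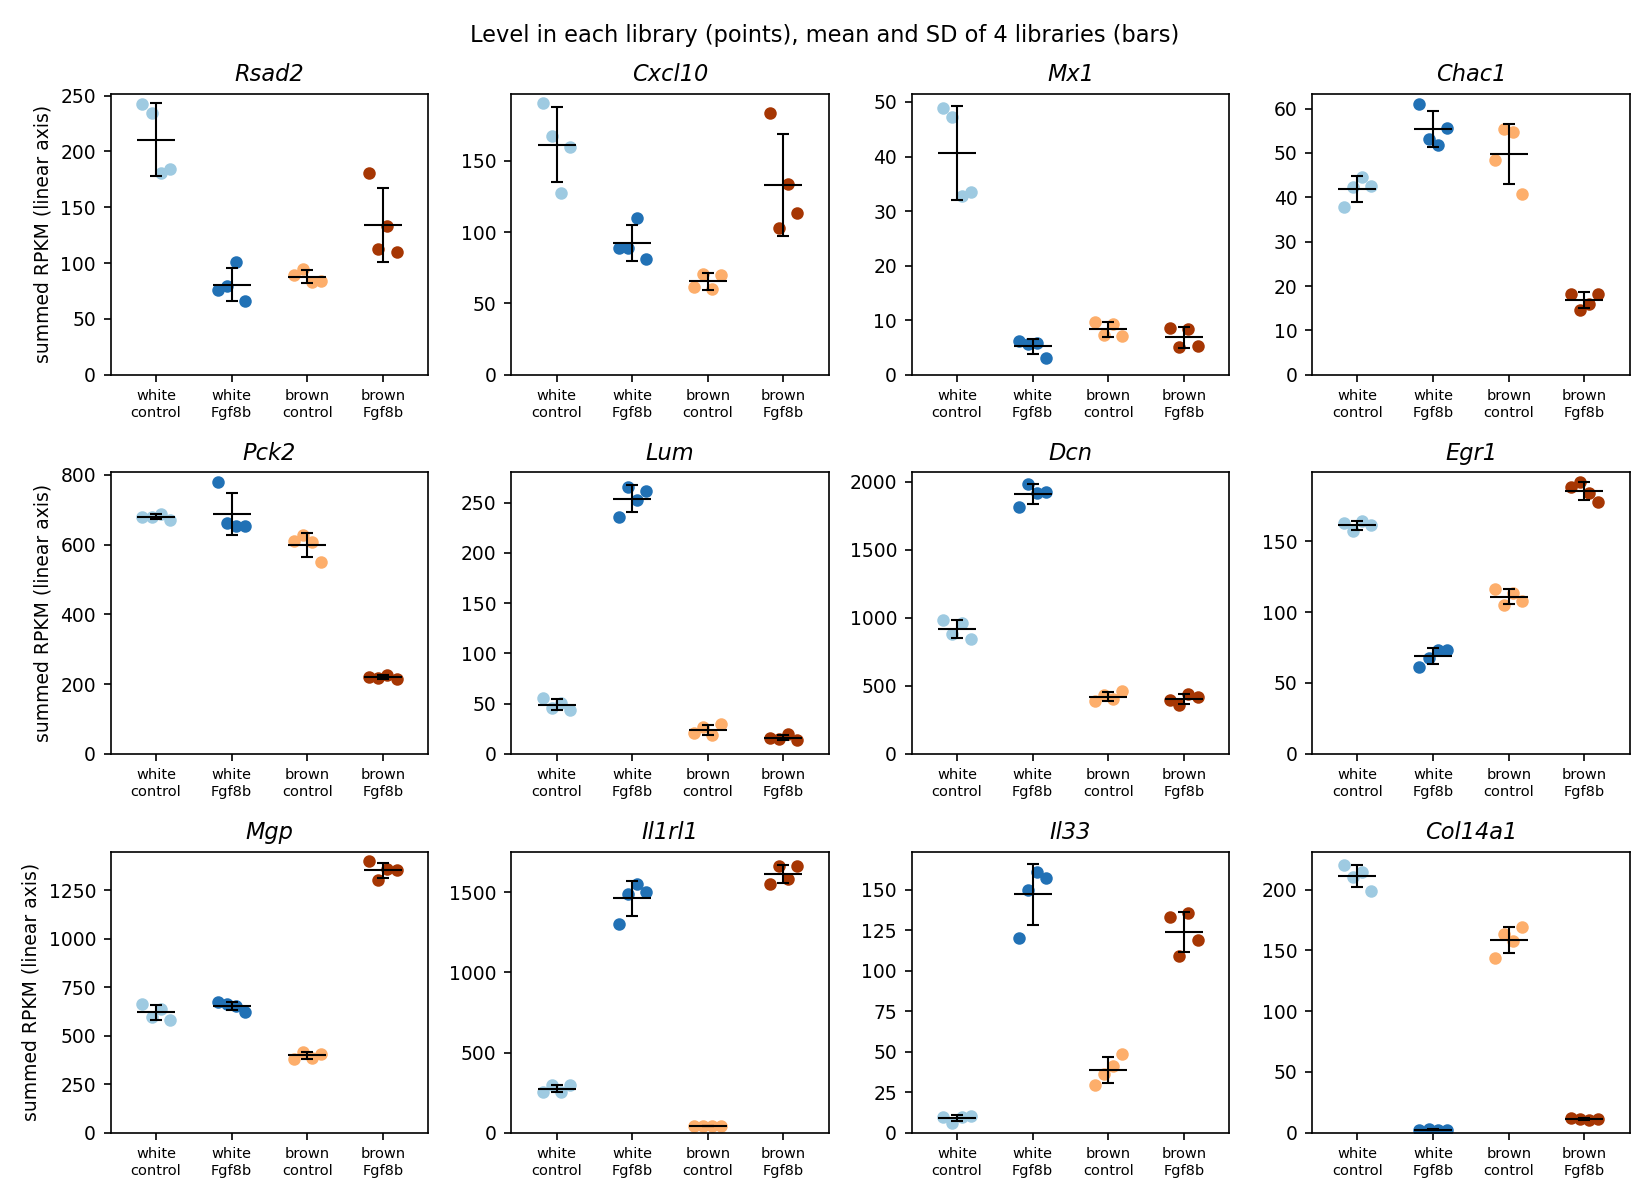
Each panel is a gene, with the summed RPKM of every library as a point on an axis that starts at 0, and bars for the mean and SD of the 4 libraries of each group (white control, white Fgf8b, brown control, brown Fgf8b). Egr1, Rsad2 and Cxcl10 step down in white and up in brown, Lum and Chac1 step up in white and down in brown, and Pck2 and Mgp move in brown alone.

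Cytokine and prostaglandin genes had differences of either sign. Of 27 interleukins, chemokines and receptors tested, 10 had a positive and 6 a negative difference, against 17.1% and 17.8% of all genes. The median was 0.14. Il1rl1, the receptor of interleukin-33, stood at 254, 296, 255 and 296 in white controls and 1302, 1489, 1552 and 1498 with Fgf8b. In brown it stood at 39.1, 44.3, 44.1 and 39.9 in controls and 1547, 1661, 1579.5 and 1663 with Fgf8b. The depots were far apart without Fgf8b and near each other with it, since the rise was 5.30-fold in white and 38.1-fold in brown (difference 2.85 ± 0.0876, SE, adjusted p = 1.61e-13).

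Il33, its ligand, had the opposite kind of difference. In white cells, controls were at 9.94, 6.13, 9.66 and 10.4 and rose to 120.3, 149.6, 161 and 157. In brown cells, controls were at 29.6, 36.0, 41.2 and 48.5 and rose to 133, 109, 135 and 119. Il33 rose 15.7-fold in white and 3.21-fold in brown, a difference of -2.29 ± 0.214 (SE, adjusted p = 2.11e-07), and here too the depots lay closer with Fgf8b. Il11, a cytokine of the interleukin-6 family, rose 4.13-fold in white and 13.4-fold in brown. Il15, which supports lymphocytes, rose 3.71-fold in white and had a brown response of 0.22 that was not called (adjusted p = 0.344).

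Of 14 prostaglandin genes tested, 7 had a positive and 2 a negative difference, against 17.1% and 17.8% of all genes, with a median of 0.25. Ptgs2, the inducible cyclooxygenase, rose 5.94-fold in white (33.4 to 37.5 and 200.3 to 231). In brown it rose 17.7-fold (13 to 20.1 and 278 to 301), a difference of 1.57 ± 0.128 (SE, adjusted p = 3.76e-08). Slco2a1, a prostaglandin transporter, rose 1.32-fold and 2.43-fold. The prostaglandin E receptor Ptger4 was opposite, with a fall of 1.17-fold in white and a rise of 1.46-fold in brown. Ptgfr, the prostaglandin F receptor, rose more in white, 2.52-fold against 1.54-fold.

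Most matrix genes fell in both depots. Among called members that moved the same way in both, up or down, the larger response was brown for 20 and white for 5. Over all called genes these counts were 1990 and 891. Of 38 fibrillar and basement membrane matrix genes tested, 8 had a positive and 19 a negative difference, a median of -0.15. Over all genes the shares were 17.1% and 17.8%. Falls were called for 34 in white and for 34 in brown, against 29.5% and 34.7% of all genes. Rises were called for 3 in white and 4 in brown, against 36.3% and 36.7%. Col14a1, a fibril-associated collagen, went the other way. It stood at 220.5, 211, 215 and 199 in white controls and 2.11, 2.94, 2.41 and 2.17 with Fgf8b. Brown libraries stood at 143, 163, 158 and 169 and at 12.1, 11.2, 10.8 and 11.7. The falls were 73.2-fold in white and 13.3-fold in brown, a difference of 2.46 ± 0.110 (SE, adjusted p = 2.25e-11).

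Eln, elastin, fell 16.5-fold in white (42.9 to 45.1 and 1.80 to 2.48) and 63.4-fold in brown (74.4 to 80.6 and 0.388 to 1.06). Col6a2, a collagen of the pericellular network, fell 3.22-fold in white and 7.10-fold in brown, a difference of -1.14 ± 0.0616 (SE). Mfap4, a microfibril protein, fell 7.91-fold and 19.5-fold, although its fall in RPKM was larger in white. Of 11 small leucine-rich proteoglycans, 3 had a positive and 5 a negative difference, against 17.1% and 17.8% of all genes. Dcn, decorin, rose in white from 842 to 983 to 1814 to 1986, a 2.09-fold change. In brown its libraries overlapped, at 384 to 462 and 356 to 443, and the difference was -1.12 ± 0.0921 (SE, adjusted p = 4.31e-08). Aspn, asporin, fell in both, 59.7-fold in white and 245-fold in brown on the log2(summed RPKM + 0.5) scale, to levels of at most 1.18. Library 15 was the highest control for Aspn, at 246 against 176 to 182 for the others.

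**Figure D4:**
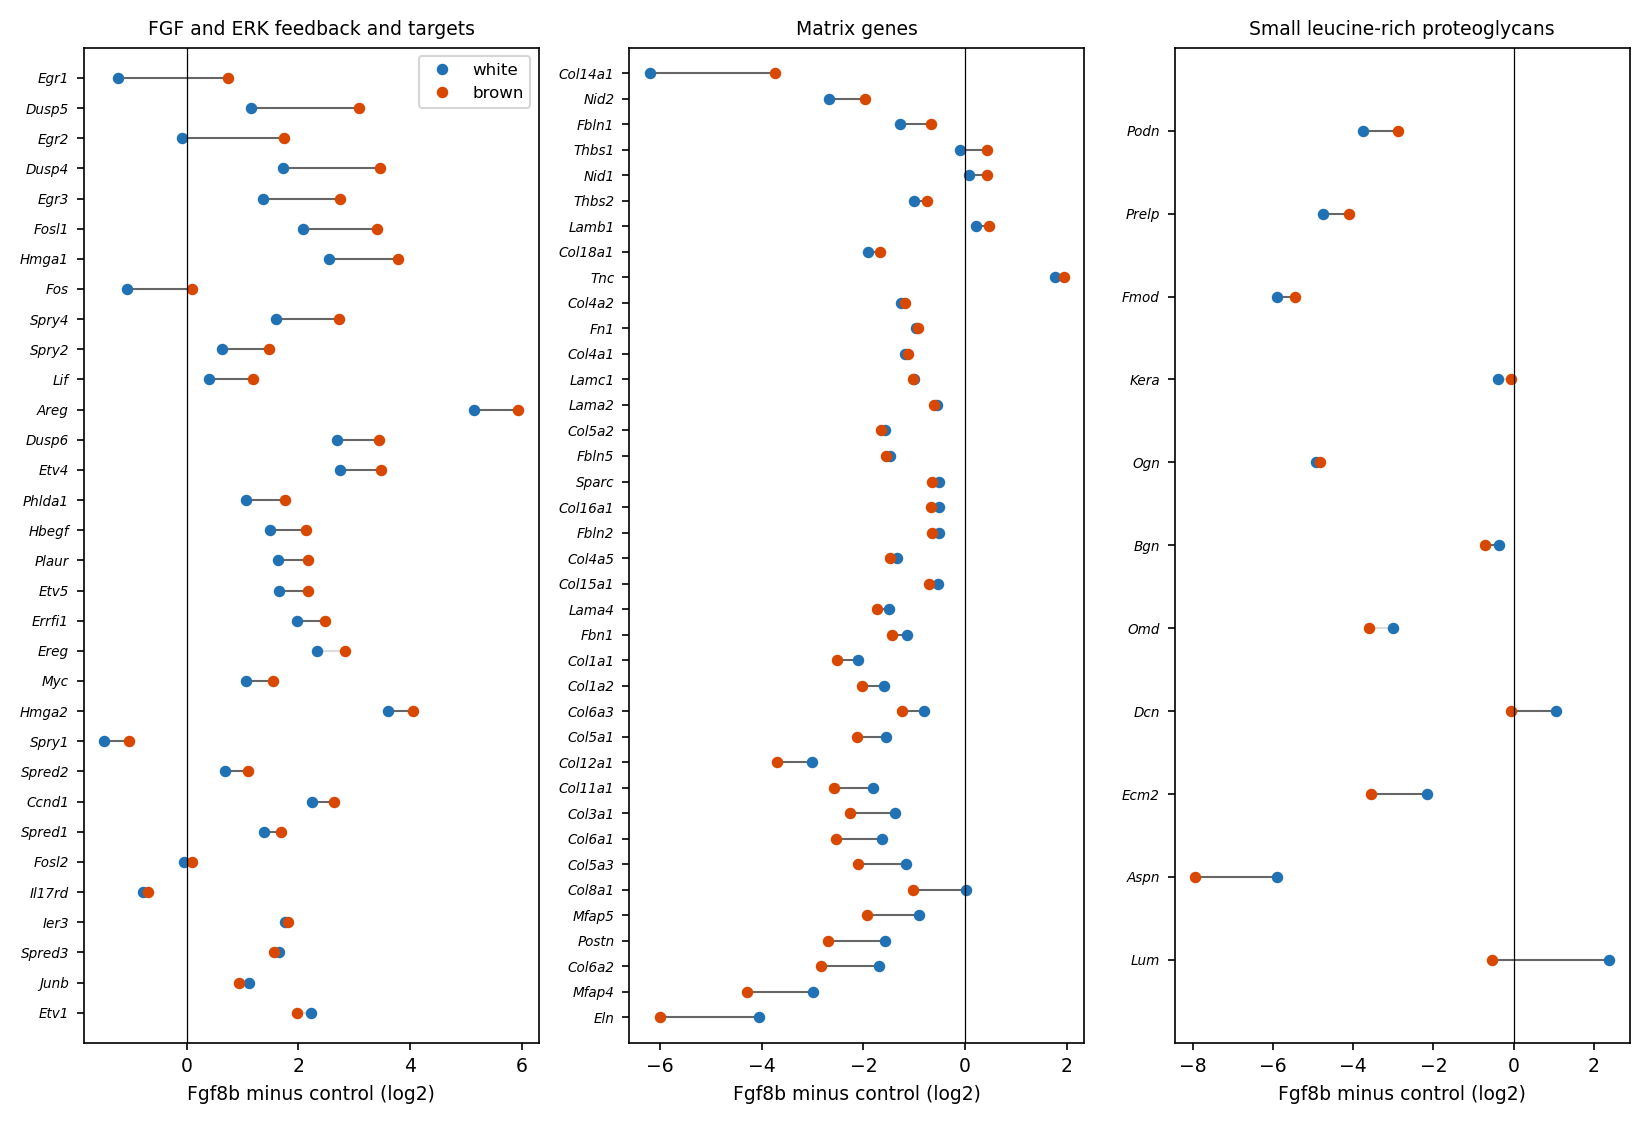
Each row is a gene of the FGF feedback, matrix or small leucine-rich proteoglycan lists, with points for its log2 response in white and in brown cells joined by a line that is pale where the difference was not called. Most feedback rows lie right of 0 with the brown point farther right, while Egr1 has points on either side of 0 and Spry1 and Il17rd lie left of it; most matrix rows fall in both depots.

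Genes with a called response in brown alone included Mgp, which encodes a matrix protein that keeps tissue from calcifying. It stood at 665, 598, 638 and 579 in white controls and 673, 662, 653 and 623 with Fgf8b. In brown it stood at 381, 418, 388 and 408 and at 1399, 1302, 1358 and 1355. The white groups overlapped while Mgp rose 3.39-fold in brown, a difference of 1.69 ± 0.0602 (SE, adjusted p = 1.46e-12). Cd38, an enzyme that consumes NAD, rose 5.13-fold in brown (2.65 to 4.07 and 17.4 to 20.1) with white libraries at 3.18 to 5.38. Pcdh9, a protocadherin, rose 2.74-fold, and Rrp12, a ribosome assembly factor, 2.27-fold. Clec1a, a C-type lectin, rose 2.56-fold.

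Among genes that fell in brown alone, Cox6b2, an alternative subunit of cytochrome oxidase, fell 3.20-fold (64.9 to 83.0 and 19 to 25.6). Its white libraries overlapped at 47.5 to 60.6 and 39.6 to 59.9. Kcp, a secreted modulator of BMP signals, fell 4.02-fold in brown, a difference of -1.71 ± 0.263 (SE). Tnnt3, a skeletal muscle troponin, fell 4.03-fold in brown, from 9.76 to 16.4 to 1.91, 2.09, 1.95 and 9.15, with library 16 at the last value. Another gene that the naming rule picked here carries a date in place of its symbol in the table and is not named.

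Genes with a response in white alone included As3mt, an arsenic methyltransferase. It rose 4.93-fold in white, from 4.44, 5.97, 5.28 and 4.10 to 22.2, 26.9, 28.1 and 27.7. Its brown libraries overlapped, at 4.74 to 9.86 and 7.34 to 9.22, and the difference was -2.05 ± 0.230 (SE, adjusted p = 1.77e-06). Bcl3, a nuclear partner of NF-kappaB, rose 2.62-fold in white with a brown response of 0.04. Negr1, a cell adhesion protein, rose 3.01-fold, and Sema4g, a semaphorin, 2.18-fold. Tnnt2, the cardiac troponin T, fell from between 14.1 and 23.2 to between 0 and 4.63 in white. Its brown values were 19.6 to 39.8 and 10.4 to 21.1, a response of -0.80 that was not called (adjusted p = 0.142).

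Among genes that rose more in brown, Angptl4, a secreted inhibitor of lipoprotein lipase, stood at 32.2, 36.9, 31.8 and 36.1 in white controls and 293, 342, 357 and 387 with Fgf8b. In brown it stood at 13.5, 12.4, 13 and 16 and at 943, 975, 973 and 996. The depots changed places, and the rises were 9.90-fold and 68.7-fold (difference 2.79 ± 0.113, SE, adjusted p = 7.72e-12). Sgk1, a kinase induced by serum and steroids, rose 1.12-fold in white (223 to 240.5 and 254 to 267). In brown it rose 4.61-fold (124 to 137 and 572 to 642), a difference of 2.04 ± 0.0586 (SE). Gfra2, a co-receptor of neurturin, rose 1.35-fold and 6.71-fold. Akr1c18, which inactivates progesterone, rose 13.6-fold and 60.8-fold from levels of at most 1.82.

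Among genes that fell more in brown, Serpinb6b, an intracellular protease inhibitor, fell from 73.7, 71.3, 73.8 and 71.4 to 6.46, 7.99, 7.12 and 9.66. In white it stood at 6.85, 9.49, 9.23 and 9.03 and at 6.52, 6.88, 5.44 and 6.21. The depots differed widely in controls and overlapped with Fgf8b, and the difference was -2.72 ± 0.160 (SE, adjusted p = 5.88e-10). Serpinb1a, an elastase inhibitor, fell 3.40-fold in white and 17.0-fold in brown. C1qtnf3, a secreted C1q-like protein, fell 5.73-fold and 42.5-fold, from control means of 20.4 in white and 118 in brown. Lrrc17, a secreted leucine-rich protein, fell 3.97-fold and 19.3-fold, and Atp2b4, a calcium pump of the plasma membrane, 2.67-fold and 10.5-fold.

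Among genes that rose more in white was Rgs5, a G protein regulator typical of pericytes. It rose in white from 1.16, 3.47, 2.25 and 2.78 to 61.7, 63.7, 62.8 and 64.1. In brown it rose from 6.51, 5.70, 6.71 and 5.05 to 16.3, 16.6, 20.3 and 20.8. All Fgf8b libraries lay above all controls in both depots, and the difference was -2.97 ± 0.257 (SE, adjusted p = 8.58e-08). Entpd1, which breaks down extracellular ATP, rose 8.24-fold in white and 1.26-fold in brown. Neto2, an auxiliary subunit of kainate receptors, rose 19.4-fold and 5.17-fold, and Tnfrsf11b, osteoprotegerin, 10.1-fold and 2.57-fold. Masp1, a protease of the lectin complement pathway, rose 4.16-fold and 1.25-fold.

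Falls were larger in white for Ace, angiotensin-converting enzyme, which stood at 162, 135, 131 and 134 in white controls and 22.5, 28.9, 25 and 24.8 with Fgf8b. Brown libraries stood at 16.1, 17.4, 16.5 and 17.9 and at 11.6, 10.1, 13.2 and 12.3. White controls were the only high group, and the difference was 1.93 ± 0.124 (SE, adjusted p = 1.75e-09). Igfbp3, which carries insulin-like growth factors, fell 47.7-fold in white and 15.5-fold in brown, and Cfb, complement factor B, 9.45-fold and 4.30-fold. Smoc2, a matricellular calcium-binding protein, fell 35.2-fold and 6.80-fold. Fgl2, a fibrinogen-like protein, fell 4.62-fold and 1.23-fold.

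Genes of fat cell identity differed in places. Ucp1 rose in both depots, 2.59-fold in white (7.99, 7.04, 8.58 and 6.90 to 22.9, 17.8, 22.2 and 19.3). In brown it rose 1.81-fold (7.77, 9.66, 6.31 and 8.11 to 13.8, 13.6, 15.1 and 16.5). The control groups overlapped between depots and the Fgf8b groups did not, with white higher, and the difference was -0.51 ± 0.164 (SE, adjusted p = 0.021). Dio2, a deiodinase that activates thyroid hormone and serves thermogenesis, rose 1.5-fold in white and 7.98-fold in brown on the log2(summed RPKM + 0.5) scale. Its levels were at most 0.564 in white and 10.6 in brown, so the 0.5 added shrinks the white fold most. It had 2 to 4 and 11 to 16 estimated reads in white, and 18 to 23 and 232 to 280 in brown. Ppargc1a, the co-activator of mitochondrial genes, had levels of at most 1.28. It fell in white, with 10 to 22 estimated reads in the controls and 0 to 5 with Fgf8b, and had a brown response of 0.21 that was not called.

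No difference was called for Prdm16, a brown fat regulator, at -0.16 (95% interval -0.37 to 0.06, adjusted p = 0.258). None was called for Pparg, the master regulator of fat cell formation, at 0.25 (95% interval -0.03 to 0.52, adjusted p = 0.157). Over 17 thermogenic genes tested, 2 had a positive and 5 a negative difference, and over 25 adipocyte differentiation genes 4 and 4, beside 17.1% and 17.8% of all genes. Lpl, lipoprotein lipase, fell from 1873 to 2029 to 217 to 253 in white, an 8.33-fold change. In brown it fell from 744 to 847 to 219 to 229, 3.54-fold, so that the depots overlapped with Fgf8b. Klf15, a transcription factor of fat and muscle metabolism, fell 11.5-fold in white and 3.70-fold in brown. Pnpla2, the triglyceride lipase of fat cells, fell 1.49-fold in white, with a brown response of -0.05. Of 23 fatty acid oxidation genes, 10 had a negative difference and none a positive one, with a median of -0.19.

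Preadipocyte markers split, with 10 of 22 positive and 8 negative, beside 17.1% and 17.8% of all genes. Dlk1, a preadipocyte surface protein, fell 2.80-fold in white (864 to 1067 and 325 to 359) and 1.11-fold in brown (271 to 338 and 268 to 280.3). Dpp4 and Pi16, which mark stem-like stromal progenitors, differed in opposite directions. Dpp4 fell 5.11-fold in white and 1.35-fold in brown, whereas Pi16 fell 2.75-fold and 9.80-fold. Spp1, osteopontin, rose 95.5-fold in white and 155-fold in brown, although its rise in RPKM was larger in white.

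Of 11 Notch genes tested, 6 had a negative difference and 1 a positive one, against 17.8% and 17.1% of all genes, with a median of -0.33. The count of 6 was 2 without brown control 13 and 3 without brown control 9 or 15. Notch3, a receptor of mural cells, fell 1.56-fold in white (6.71 to 6.92 and 3.77 to 4.79) and 4.52-fold in brown (12.8 to 17.6 and 3.04 to 3.26). Heyl, a Notch target, stood at 3.49 to 5.10 in brown controls and at most 0.271 in every other group. Hes1, another Notch target, fell 1.44-fold in brown with a white response of -0.10 that was not called. Of 31 BMP and TGF-beta genes, 9 had a positive and 14 a negative difference, against 17.1% and 17.8% of all genes. Tgfb2, a TGF-beta ligand, fell 1.53-fold in white (27.0 to 30.8 and 16.8 to 19.7) and 5.27-fold in brown (31.7 to 36.8 and 5.85 to 6.18), a difference of -1.79 ± 0.0961 (SE). Ltbp1, which holds latent TGF-beta in the matrix, rose 2.52-fold and 6.05-fold.

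Of 28 WNT genes, 3 had a positive and 9 a negative difference, against 17.1% and 17.8% of all genes. Wnt2, a ligand, fell 2.58-fold in white with a brown response of -0.18. Lgr5, a receptor of R-spondins, fell more in white on the log scale used, with a difference of 1.84. That difference was not called with a pseudocount of 0.1 (adjusted p = 0.0564). Lgr5 had 194 to 312 estimated reads in white controls and 2 to 12 in white with Fgf8b. In brown it had 34 to 56 in controls and 0 to 2 with Fgf8b. The transcript was nearly lost in both depots, and the pseudocount limits the fall from the lower brown start. Whether the proportional fall differed therefore cannot be told. DNA replication and S-phase genes rose in both depots, 21 of 25 in white and all 25 in brown, against 36.3% and 36.7% of all genes. A positive difference was called for 15 of the 25, against 17.1% of all genes, with a median of 0.19. Mcm10, which starts replication forks, rose 1.82-fold in white and 2.57-fold in brown, and Cdt1, which licenses origins, 1.42-fold in brown with a white response of 0.03. For the 25 mitosis genes, all of which rose in both depots, 6 differences were negative and none positive, beside 17.8% and 17.1% of all genes. Pfkp, a phosphofructokinase, rose 1.55-fold in white with a brown response of -0.01. Aldoc, an aldolase, fell 2.14-fold in brown with a white response of 0.09.

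**Figure D5:**
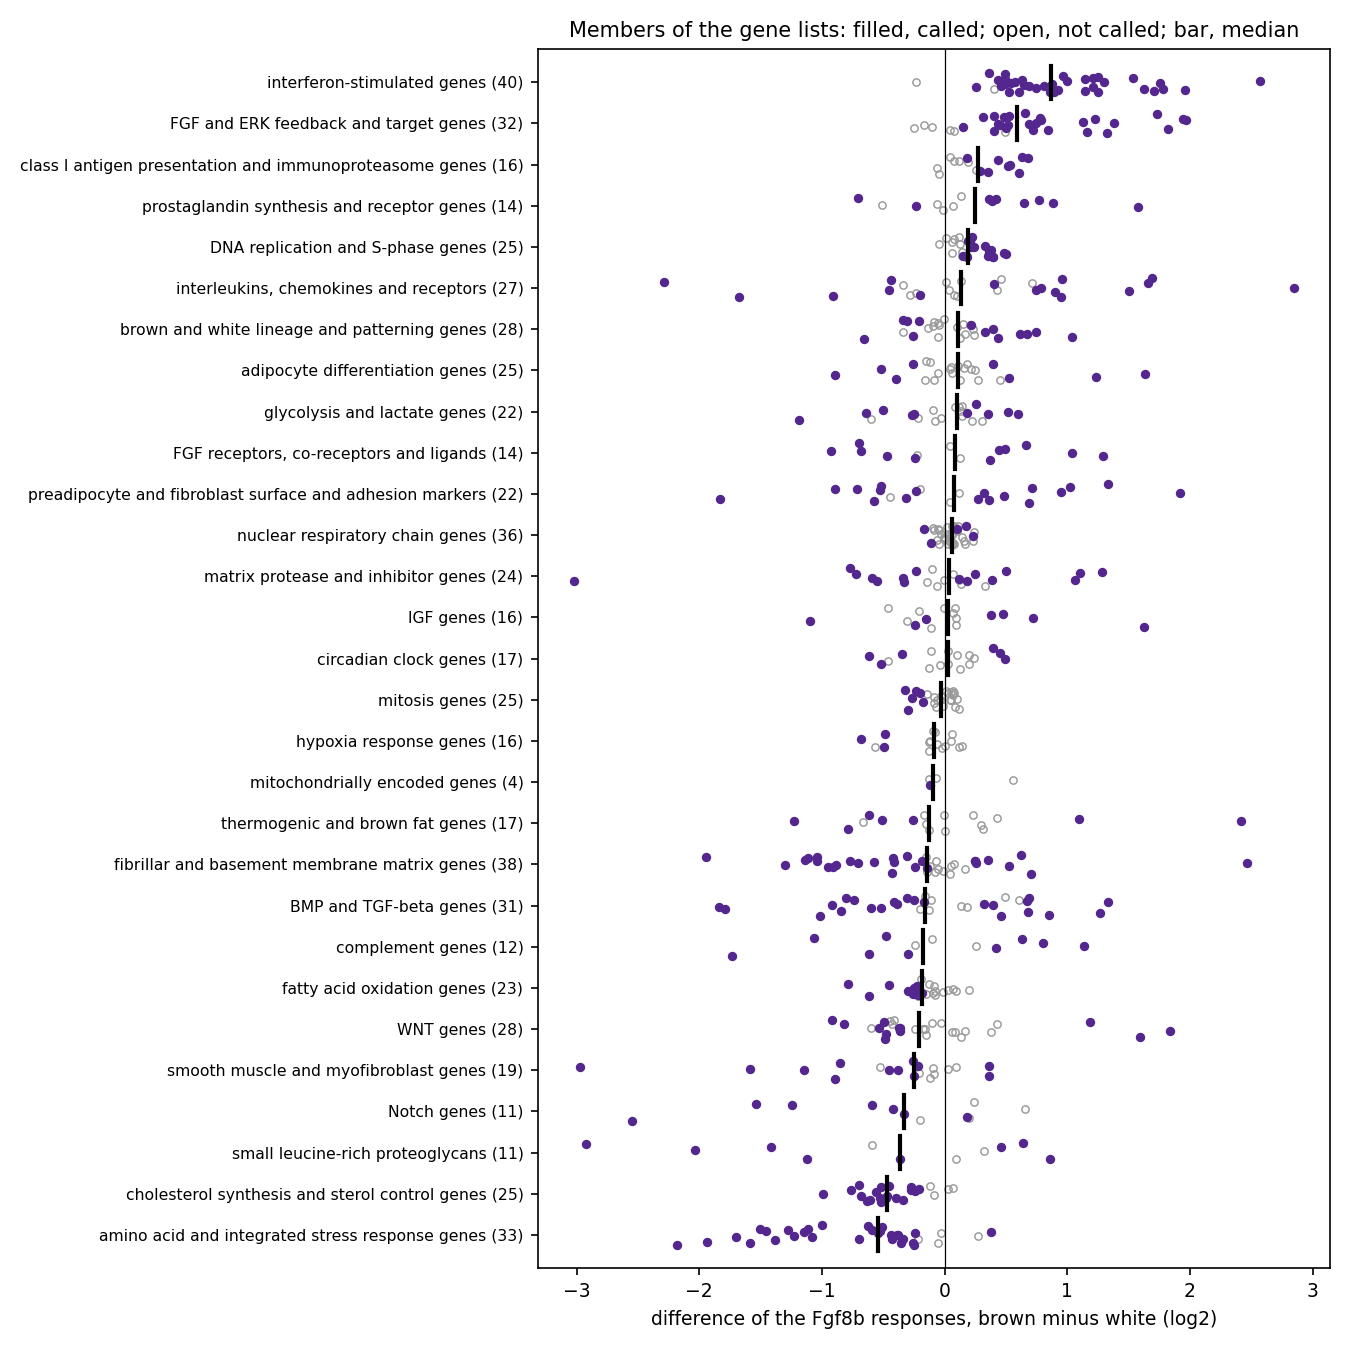
Each row is a gene list, with a point for the difference of every tested member (log2, brown minus white), filled where called and open where not, and a bar at the list's median. The filled points of the interferon and FGF feedback lists lie right of 0 and those of the sterol list left of 0, with medians of 0.87, 0.59 and -0.47.

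Markers of other cells that a stromal fraction can hold were summed per library. Their called differences stand beside 17.1% positive and 17.8% negative over all genes. Over all genes, 36.3% rose and 29.5% fell in white, and 36.7% rose and 34.7% fell in brown. The 9 Schwann cell markers tested had 1 positive difference (Ngfr) and 3 negative ones. In white 1 rose and 5 fell, and in brown 1 rose and 8 fell. The sum over the list stood at 52.9 to 64.2 in white controls and 39.95 to 43.6 in white with Fgf8b. In brown the sum was 79.7 to 87.0 in controls and 41.1 to 44.4 with Fgf8b. The marker Sox10 was nearly confined to brown, with means of 0.0752 and 0.0465 in white and 3.72 and 2.79 in brown. Mbp, on the same list, had more estimated reads in white controls (280 to 292) than in brown ones (141 to 166). The neurotrophin receptor Ngfr fell 13.3-fold in white and 3.5-fold in brown. The pericyte sum was 763 to 797 and 453 to 456 in white and 843 to 975 and 542 to 562 in brown. Most of it was the receptor Pdgfrb, which is also on the preadipocyte list. Its means were 680 and 245 in white and 741 and 373 in brown. Of the 7 pericyte markers tested, 3 rose and 3 fell in white, and 1 rose and 5 fell in brown. Their differences were positive for 2 and negative for 4. The endothelial sum was 293 to 324 and 218 to 248 in white and 404 to 507 and 300 to 338 in brown, with 2 positive differences among 8. It includes Eng, which is also on the preadipocyte list. The group means of the endothelial genes Pecam1 and Cdh5 were at most 1.32 and 3.88.

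The sum of skeletal muscle markers was higher with Fgf8b in white (37.7 to 48.9 and 53.5 to 56.4) and lower in brown (49.9 to 66.1 and 37.1 to 44.3). Of 8 tested, 3 had a negative difference, beside 17.8% of all genes, and 0 had opposite called responses. This sum mixes rises and falls. Chrna1 had 1 to 4 and 178 to 255 estimated reads in white, and 1 to 5 and 191 to 289 in brown. Acta1 had 107 to 198 and 41 to 62 in white, and 182 to 232 and 43 to 56 in brown. The defining muscle regulator Myod1 was at 0 in all 16 libraries. Leukocyte markers stood at 30.2 to 31.9 and 32.8 to 35.9 in white and 37.2 to 47.9 and 50.4 to 54.9 in brown, with Ptprc at most 0.134. The members of this sum moved in different directions. Cd14, with the 1 called difference, had 77 to 96 and 136 to 174 estimated reads in white. In brown it had 85 to 99 and 191 to 199. Csf1r was lower with Fgf8b, with means of 9.95 and 5.89 in white and 14.6 and 10.9 in brown. Lyz2, a macrophage lysozyme, had means of 3.78 and 0.261 in white and 9.16 and 0.550 in brown. The part of these cells in the differences above was not tested.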

How the data were processed

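Total RNA behind the 16 libraries was extracted with TRIsure, and the TruSeq RNA Sample Prep kit v2 gave the libraries, per the labels' protocols. CASAVA and bcl2fastq were used, per the submitters' processing notes. The sources used here do not state the aligner, genome build, annotation or strand setting. The authors deposited 1 table of RPKM with decimal commas, 168326 transcript entries and 16 columns. Here 23172 entries without a gene symbol (13.8%) and 808 entries of 299 repeated accessions (some entries are both) were left out, and the remaining 144549 entries were summed per symbol to 29060 genes. RPKM values are not counts, so the count test planned for a table of counts was not used. At 50 reads or fewer, 95.6% to 96% of values were within 0.1 of a whole number of reads, and the depths come from these steps.

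Genes that reached 0.5 RPKM in 4 or more libraries entered limma 3.58.1 (R 4.3.3; trend and robust moderation) on log2(RPKM + 0.5), with all 4 groups in 1 fit, no covariate, and p-values adjusted by Benjamini-Hochberg over all 15222 genes. The script was tested on simulated data. Tables and figures were made with Python 3.11.15, pandas 2.3.3, numpy 2.4.6, scipy 1.17.1 and matplotlib 3.10.9. Classes of genes were defined by the calls of the difference and of the 2 responses. The genes named are the largest differences of each class and sign (8 each way for opposite genes, 6 for other classes) among genes having a mean level of 5 RPKM or more and the same sign without any 1 library, up to 4 called members of each list, and 8 genes set by name. The text gives part of these, and some results are not reported here. Class members, lists and rules were chosen with earlier results of these data known. Alternatives covered the pseudocount, the filter, 2 other scalings, RefSeq transcripts alone, repeated accessions, array weights, the moderation and each library left out.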

Additional observations from a re-analysis of the deposited data

Results flagged for a closer look

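The responses differed between the depots, by the limma test of the difference, in 5313 genes, and 409 of these had called responses of opposite sign. These counts are the subject of the text above.

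In a comparison of 130 genes over 4 groups (520 groups), 31 values of a single library stood far from those of the other 3 of the group by Dixon's 95% criterion. Chance alone flags about 1 in 20 groups. Of the 31, 2 were values of brown control 15, the library with the low array weight: Aspn at 246 (others 176 to 182) and Psmb10 at 50.4 (63.3 to 64.7).

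In white controls, library 1 stood apart for Cox6b2 at 60.6 (others 47.5 to 48.0), Serpinb6b at 6.85 (9.03 to 9.49) and Ace at 162 (131 to 135). Library 3 stood apart for Il33 at 6.13 (9.66 to 10.4) and the muscle filament gene Des at 2.26 (0.963 to 1.08). Library 5 stood apart for Rarres2 at 6.40 (7.0 to 7.04) and Kcp at 12.2 (13.1 to 13.2), and library 7 for Notch3 at 6.92 (6.71 to 6.74).

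In white cells with Fgf8b, library 2 was low for Rgs2 at 60.4 (72.7 to 74.2), Rrp12 at 5.47 (6.14 to 6.22), Tnfrsf11b at 22.3 (27.9 to 28.5) and Dusp4 at 132 (151 to 154). It was high for Pck2 at 778 (654 to 662) and Il15 at 11.2 (9.29 to 9.55). Library 4 stood apart for Ttyh1 at 4.54 (8.62 to 9.34), Masp1 at 28.9 (24.9 to 25.6) and Wnt2 at 1.25 (2.14 to 2.35). Library 8 stood apart for Mx1 at 3.12 (5.70 to 6.22), A4galt at 15.5 (14.7 to 14.8) and Pfkp at 319 (358 to 364).

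In brown cells with Fgf8b, library 16 stood apart for Tnnt3 at 9.15 (1.91 to 2.09), Akr1c18 at 81.7 (68.0 to 69.6), Hes1 at 59.0 (71.8 to 74.4) and Irx3 at 2.25 (3.0 to 3.12). Library 14 stood apart for A4galt at 4.60 (3.08 to 3.23), Fgl2 at 9.48 (7.17 to 7.31) and Ndrg1 at 93.3 (117 to 120.0). Library 12 stood apart for Dpp4 at 1.15 (0.982 to 0.988), and library 10 for Igfbp3 at 12 (12.8 to 13). The differences of these genes kept their sign without any 1 library.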

How the results depend on the processing

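No paired analysis was possible because the groups share no replicate number and no label ties a treated library to a control. The results were recomputed under 26 alternatives, 16 of which leave out 1 library. Leaving out a library gave 4839 to 5875 called genes, 567 to 619 of at least 2-fold, 356 to 485 opposite, 1112 to 1276 in brown alone and 680 to 843 in white alone. The other 10 alternatives gave 5047 to 6025 called genes. The count of at least 2-fold was 318 with RefSeq transcripts alone, in place of 604. That fit tested 12768 genes. Of the 604, 489 were tested there, 483 were called the same way and 304 also reached 2-fold. The share of called genes with a positive difference was 49.0%, and it was 52.3% under median-of-ratios and 42.9% under upper-quartile scaling. Those scalings moved the median response of a depot by less than 0.1. Of the 409 opposite genes, 312 were opposite under median-of-ratios scaling too (of 403 there) and 271 under upper-quartile scaling (of 417 there). Of the 128 called genes that were followed, 124 were called under every alternative that tested them, and no difference changed sign. The exceptions were Jag1, Lgr5, Zfp423 and Hoxa9. Lgr5 and Zfp423 had adjusted p-values of 0.0564 and 0.216 with a pseudocount of 0.1, and Hoxa9 of 0.25 with RefSeq transcripts alone. Jag1 was not called in 13 alternatives. Depth limits low genes most, such as Ppargc1a with at most 22 estimated reads per library.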
